A study of Mus musculus with 9 samples.

Results

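Genes of the chemokine, interleukin and tumour necrosis factor (TNF) families were followed in mouse striatum after treatment with MPTP. They were chosen by symbol alone, without regard to their values: the numbered Ccl, Cxcl, Ccr and Cxcr genes, the interleukins and interleukin receptors, Tnf, and the numbered Tnfsf ligands and Tnfrsf receptors. Of the 19935 genes with a probe set that carries exactly 1 gene symbol, 137 met this rule, and each was read from its brightest probe set. Total RNA was hybridised to 9 one-colour arrays, with 3 samples in each of 3 groups, and the deposited values are log2 intensities. The labels used here give no strain, sex or age, and whether the 3 samples of a group came from separate animals is not said, so that p-values reflect only variation among these samples, which may be technical.

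Acute MPTP was 4 intraperitoneal injections of 20 mg/kg, spaced by 2 h, with striatum collected 1 week later. Chronic MPTP was 1 dose of 4 mg/kg daily over 20 days, with striatum collected 8 weeks later, so that both regimens came to 80 mg/kg. The control group received saline 4 times, 2 h apart, and was sampled after 1 week. With no 8-week saline group here, regimen and time cannot be told apart where the chronic group is compared. MPTP is the precursor of a toxin taken up by the dopamine transporter, and the striatum is the target of the affected dopamine axons.

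Chemokines are small secreted proteins that steer cells along a gradient through G protein-coupled receptors, and CC and CXC chemokines are told apart by the spacing of their first cysteines. Interleukins and TNF family ligands act on paired or trimeric receptors, many of which signal through NF-kappaB or the JAK-STAT pathway. In the uninflamed brain most of these ligands are scarce. A few are constitutive products of neurons, glia or vessels, such as Il34, which maintains microglia, and Cxcl12, the ligand of Cxcr4.

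Arrays of the same group differed in markers of tissue next to the striatum. Tbr1, a transcription factor of cortical neurons, was high on control 1, acute 1 and acute 2, called cortex-rich below (9.89, 9.12 and 9.65, against 7.27 or less on the rest). Ttr, a secreted product of choroid plexus, was high on control 3 and acute 3 (12.56 and 13.37, against 10.85 or less elsewhere), and Slc17a6, a glutamate transporter of thalamic neurons, was highest on the same pair. Ppp1r1b, the projection neuron gene for DARPP-32, lay at 11.44 to 12.31 over the 9 arrays, so that striatum was present on each. Of 14 striatal projection neuron genes, 14 had positive differences in both MPTP groups against control, with medians of 0.31 and 0.52. In chronic against control 11 of the 14, and in acute against control 1, had an unadjusted p under 0.05 in limma, and 0 passed after adjustment. Over all probe sets tested, 5.51% and 0.851% had such an unadjusted p in these comparisons. The part of this difference in striatal genes in the comparisons below was not tested. In bulk tissue, fewer cells of a type and less RNA per cell cannot be told apart. The part of tissue composition in the results was not tested beyond the values given beside them.

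Most of the family lay at the dim end of the array. Of the 137 genes, 64 had a mean below the filter of log2 5.89, the 25th percentile of probe sets with 1 symbol, and were not tested. Another 59 lay between that filter and the 50th percentile (7.27), and 14 lay above it. Passing the filter did not amount to detection. Of 25 marker genes of T and NK cells, B and plasma cells and neutrophils, 10 passed it as well, 9 of them below the 50th percentile and the other being Cd4, with a mean of 8.08. The 73 tested genes were 11 of 19 CC ligands, 6 of 13 CXC ligands, 5 of 15 chemokine receptors, 14 of 33 interleukins, 16 of 27 interleukin receptors, 4 of 10 TNF superfamily ligands and 17 of 20 TNF receptor superfamily genes. The Il1 receptor antagonist Il1rn is counted with the interleukins. The classical inflammatory cytokines were among the untested. Il6 lay at 4.43 to 4.53, Il1b at 5.06 to 5.52, Il1a at 5.47 to 5.83, Tnf at 5.56 to 5.84 and the anti-inflammatory Il10 at 4.88 to 5.13 over the 9 arrays. The monocyte chemoattractants Ccl2 and Ccl12 (5.10 to 5.52 and 5.10 to 5.46), the interferon-induced Cxcl10 (5.58 to 5.75), Cxcl16 (5.23 to 5.46) and Il1rn (5.61 to 5.74) were likewise below it. Among those just inside the filter were Cxcr1 (mean 5.91) and Il12a (5.97), and just outside were Ccl20 (5.84) and Il2rb (5.84). Il1r1, Il11ra1 and Tnfsf12 were not analysed here.

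**Figure D1:**
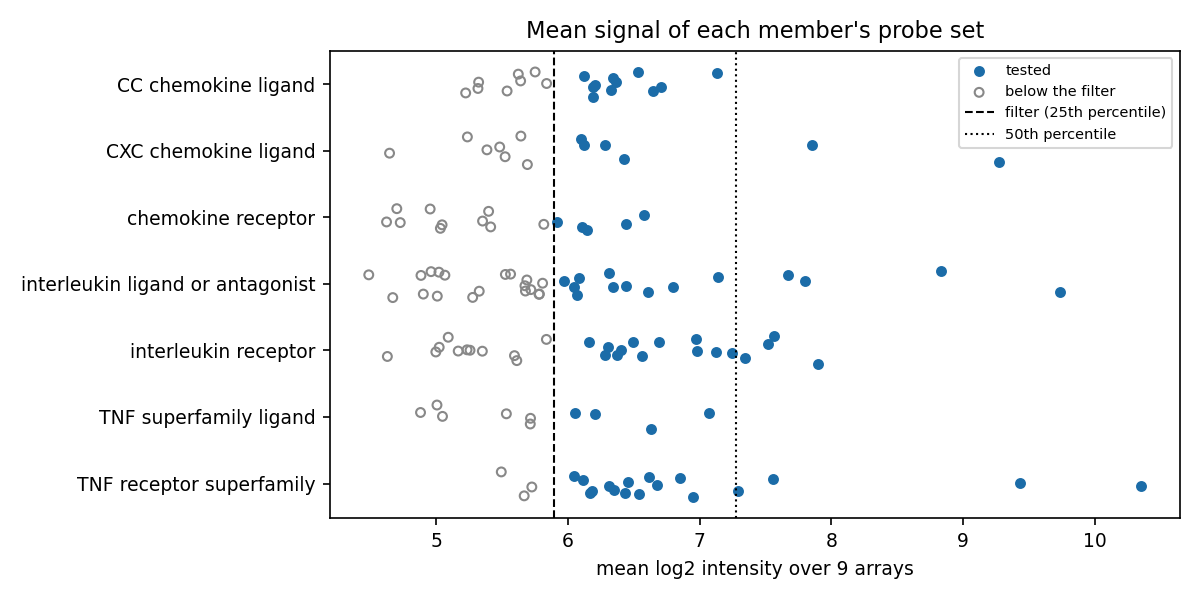
Mean log2 intensity over the 9 arrays (x axis) of the 137 genes, 1 point each, by family (y axis; vertical scatter only separates points). Filled points are the 73 tested genes, open points the 64 below the filter at 5.89 (dashed line); 14 genes lie right of the 50th percentile at 7.27 (dotted line).

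Several of these genes are textbook targets of NF-kappaB. RefSeq promoters (GRCm38.p6) were matched by gene identifier for 101 of the 137 members, and the 250 bases before each start were searched on both strands for GGG followed by any 2 bases and TTTCC, a form of the NF-kappaB motif. The motif is written as read on the gene's strand, and its reverse complement was counted too; overlapping matches counted separately. A match was found for 13 of the 101 members (12.9%), against 447 of 27025 genes in the table (1.65%). No other motif was searched, and a match is a description of the sequence, not of binding. The sequences below, shown because they set the motif beside genes that were dim or level on these arrays, are 60 bases long, 5′ to 3′ on the strand of the gene, with 1 match in capitals in each. The other matches of Cxcl1 and Cxcl2, which lie in the same stretches, are left in lower case. The Cxcl1, Cxcl2 and Cxcl3 stretches lie on chromosome 5 at chr5:90891149-90891208, chr5:90903777-90903836 and chr5:90786003-90786062, that of Il6 at chr5:30013045-30013104, all on the plus strand, and that of Il16 at chr7:83655510-83655569 on the minus strand. The stretch of Tnfrsf9, which encodes the T cell costimulator 4-1BB, lies at chr4:150927931-150927990 on the plus strand.
Cxcl1: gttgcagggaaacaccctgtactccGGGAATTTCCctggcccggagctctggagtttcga
Cxcl2: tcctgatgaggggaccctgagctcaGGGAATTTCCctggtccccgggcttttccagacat
Cxcl3: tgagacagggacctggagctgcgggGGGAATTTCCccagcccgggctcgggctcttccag
Il6: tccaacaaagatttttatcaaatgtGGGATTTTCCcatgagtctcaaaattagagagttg
Il16: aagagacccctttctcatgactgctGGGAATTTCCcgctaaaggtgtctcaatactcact
Tnfrsf9: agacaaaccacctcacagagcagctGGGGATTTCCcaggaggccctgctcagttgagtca

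The neutrophil chemokines Cxcl1, Cxcl2 and Cxcl3 carry the same 10 letters, beginning 71, 97 and 73 bases before the start, and Il16 carries them 49 bases before. Of the 13 members with a match 8 were below the filter, among them Cxcl2 (5.13 to 5.31 over the arrays), Cxcl3 (5.28 to 5.69) and Il6. The other 5 were Cxcl1, Ccl9, Il16, Tnfrsf9 and Tnfrsf25. Cxcl1 was 6.40, 6.06 and 6.15 in controls, 6.51, 6.27 and 6.27 after acute MPTP and 6.43, 6.27 and 6.17 after chronic MPTP. Acute 1 was highest and control 2 lowest, and the differences were 0.15 ± 0.12 and 0.087 ± 0.12 for acute and chronic against control. Tnfrsf9 was 0.16 and 0.049. Over the 5, 4 differences were positive in acute against control and 1 in chronic against acute, with medians of 0.15 and -0.084. Over the 50 tested members without a match 36 and 14 were positive, with medians of 0.054 and -0.059.

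No tested gene of the family passed the test for a difference between groups after adjustment over all 16335 probe sets. In limma with Benjamini-Hochberg adjustment, 0 of the 73 passed in acute against control, where 0% of all probe sets were called, and 0 passed in chronic against control, again with 0% called. In chronic against acute 0 passed, where 0.0122% were called. The smallest adjusted p of a member was 1, 0.899 and 0.877 in these comparisons. At an unadjusted p under 0.05 there were 2, 1 and 3 members, that is 2.74%, 1.37% and 4.11% of those tested, against 0.851%, 5.51% and 5.12% of all probe sets. With the replicate number as a block they were 3, 0 and 8 (4.21%, 13% and 13.9% of all), and 0 passed after adjustment. In each comparison 0 of the 73 reached a 1.5-fold difference, which 0.233%, 1.53% and 0.857% of all probe sets did. The half-width of the 95% interval of a member's difference had a median of 0.25 on the log2 scale, or 1.19-fold. The whole interval lay within 1.5-fold for 70, 66 and 65 of the 73, so that a change of that size is outside the interval of most tested members, while smaller ones are not. These are intervals of the deposited intensities. Of the 73, 59 lay below the 50th percentile, and as passing the filter did not amount to detection, their intervals need not bound a change in RNA.

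Among the constitutive ligands, Il33 and Il34 had the widest spread over the arrays. Il33 is a nuclear alarmin of the interleukin 1 family that glia hold and release on damage. Log2 intensities of Il33 were 9.42, 9.83 and 9.75 in controls, 9.52, 9.15 and 9.85 after acute MPTP and 10.26, 9.56 and 10.28 after chronic MPTP. Chronic 1 and chronic 3 were the highest of all arrays and acute 2 the lowest, and chronic 2 lay among the controls. The difference was 0.53 ± 0.23 (SE, 3 arrays per group) for chronic against acute, with adjusted p = 0.877 in limma and an unadjusted 95% interval of 0.00034 to 1.05. For chronic against control it was 0.37 ± 0.23 (adjusted p = 0.953), and for acute against control -0.16 ± 0.23. With the means of a cortex and a thalamus marker list as covariates these became 0.028 ± 0.21, -0.17 ± 0.24 and -0.20 ± 0.17. The second of them turned in sign. Chronic against acute was 0.18 without the 3 cortex-rich arrays, which leaves 1 acute array whose spread is taken from the other groups, 0.35 without acute 2 and 0.76 without chronic 2. Chronic against control ran from 0.24 without chronic 3 to 0.60 without chronic 2. Between arrays of the same number, Il33 was 0.74, 0.41 and 0.43 for chronic against acute and 0.84, -0.28 and 0.53 for chronic against control. With the replicate block the SE of chronic against acute was 0.19 (unadjusted p = 0.026, adjusted p = 0.307 in limma).

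Il34, a neuronal ligand of the receptor Csf1r on microglia, lay at 8.80, 9.03 and 8.25 in controls, 8.86, 9.39 and 8.74 after acute MPTP and 8.73, 9.02 and 8.64 after chronic MPTP. The low value was that of control 3, which was high in choroid plexus and thalamic genes, and the groups overlapped. The differences were 0.30 ± 0.23 for acute and 0.10 ± 0.23 for chronic against control (adjusted p = 1 and 0.981). Without control 3 they were 0.080 and -0.12, so that the second turned, and without acute 2 the first was 0.11. With the replicate block Il34 had an unadjusted p under 0.05 in acute against control, with an adjusted p of 0.98.

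The constitutive chemokines Cxcl12 and Cxcl14 did not separate the groups. Cxcl12 was 7.87, 7.85 and 7.74 in controls, 7.93, 7.82 and 7.85 after acute MPTP and 7.73, 7.74 and 8.14 after chronic MPTP. Its values lay within a narrow range on all arrays but chronic 3. The differences were 0.044 ± 0.12 and 0.049 ± 0.12 for acute and chronic against control, with 95% intervals of -0.22 to 0.31 and -0.22 to 0.31. Cxcl14, a chemokine made constitutively in many tissues, was 9.39, 9.26 and 9.31 in controls, 9.56, 9.31 and 9.06 after acute MPTP and 9.34, 9.58 and 8.63 after chronic MPTP. It was lowest on chronic 3, and the other chronic arrays lay within or above the range of the controls. Its differences were -0.012 ± 0.22 and -0.14 ± 0.22. With the tissue covariates the chronic difference turned to 0.093 ± 0.33 for Cxcl14 and to -0.084 ± 0.19 for Cxcl12, both smaller than their SE. Cxcr4, the receptor of Cxcl12, was 6.65, 6.44 and 6.70 in controls, 6.46, 6.78 and 6.78 after acute MPTP and 6.56, 6.58 and 6.27 after chronic MPTP, and the groups overlapped.

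Cxcl13, which attracts B cells, was the only member with an unadjusted p under 0.05 in chronic against control. It lay at 6.12, 5.89 and 6.04 in controls, 5.98, 6.01 and 6.09 after acute MPTP and 6.09, 6.61 and 6.26 after chronic MPTP. Chronic 2 was the highest array and chronic 3 the next, while chronic 1 lay within the controls. The group mean was 6.32 ± 0.27 (SD, n = 3) after chronic MPTP and 6.02 ± 0.12 in controls, a difference of 0.30 ± 0.13 with adjusted p = 0.899 in limma. It was 0.16 without chronic 2 and 0.42 without chronic 1, and 0.58 with the tissue covariates. Of 6 B and plasma cell markers on the arrays, 3 passed the filter, all below the 50th percentile. Among those that did not pass it, Ms4a1, which encodes CD20, lay at 4.78 to 4.98 over the arrays and Cd79a at 5.12 to 5.69. Cxcl9, an interferon-induced attractant of T cells, gave 0.19 ± 0.11 for acute and 0.13 ± 0.11 for chronic against control. Without acute 1 the first was 0.089, and without chronic 2 the second was 0.048.

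All 11 tested CC ligands had means below the 50th percentile. Ccl9, a ligand of Ccr1, was 6.32, 6.47 and 6.13 in controls, 6.49, 6.56 and 6.35 after acute MPTP and 6.21, 6.21 and 6.24 after chronic MPTP. All chronic arrays lay below all acute arrays, and the controls overlapped both. The difference of chronic against acute was -0.25 ± 0.10 (adjusted p = 0.877), and -0.13 without the 3 cortex-rich arrays. Acute against control was 0.16 ± 0.10, and 0.072 without control 3. Ccl3, a ligand made by activated microglia, lay at 6.39, 6.31 and 6.49 after acute and 6.22, 6.33 and 6.44 after chronic MPTP. Control 1 was the lowest of its arrays and control 3 the highest (6.62). Ccl4, made by the same cells, was 6.20, 5.97 and 6.30 in controls, 6.18, 6.26 and 6.18 after acute MPTP and 6.15, 6.27 and 6.19 after chronic MPTP. For both, the groups overlapped. Their differences from control were 0.021 and -0.046 for Ccl3 and 0.050 and 0.048 for Ccl4, in acute and chronic MPTP. With the tissue covariates they were 0.10 and -0.14 for Ccl3 and 0.11 and 0.29 for Ccl4, and Ccl4 then had an unadjusted p of 0.0499 in chronic against control in limma (adjusted p = 1.00). Ccl5 and Ccl17 had differences of -0.0083 and -0.00071 for acute and 0.022 and -4.8e-05 for chronic MPTP. Ccl7, a monocyte chemoattractant, was 0.11 for chronic against acute, and 0.063 without acute 3. Ccl25 had 2 probe sets. The one with the higher mean gave -0.083 for acute against control, and turned to 0.032 without the 3 cortex-rich arrays. The other probe set gave 0.032 ± 0.071 for acute against control in the main fit, and its groups overlapped. Ccl28, a mucosal chemokine, was 5.80, 6.22 and 6.77 in controls, 6.30, 6.17 and 6.32 after acute MPTP and 6.29, 6.15 and 5.86 after chronic MPTP. Its highest and lowest arrays were both controls, control 3 and control 1. Ccl19 was represented by 5 probe sets with means of 6.40 to 6.53; the mouse genome holds near-identical copies of this gene, so its value is uncertain.

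**Figure D2:**
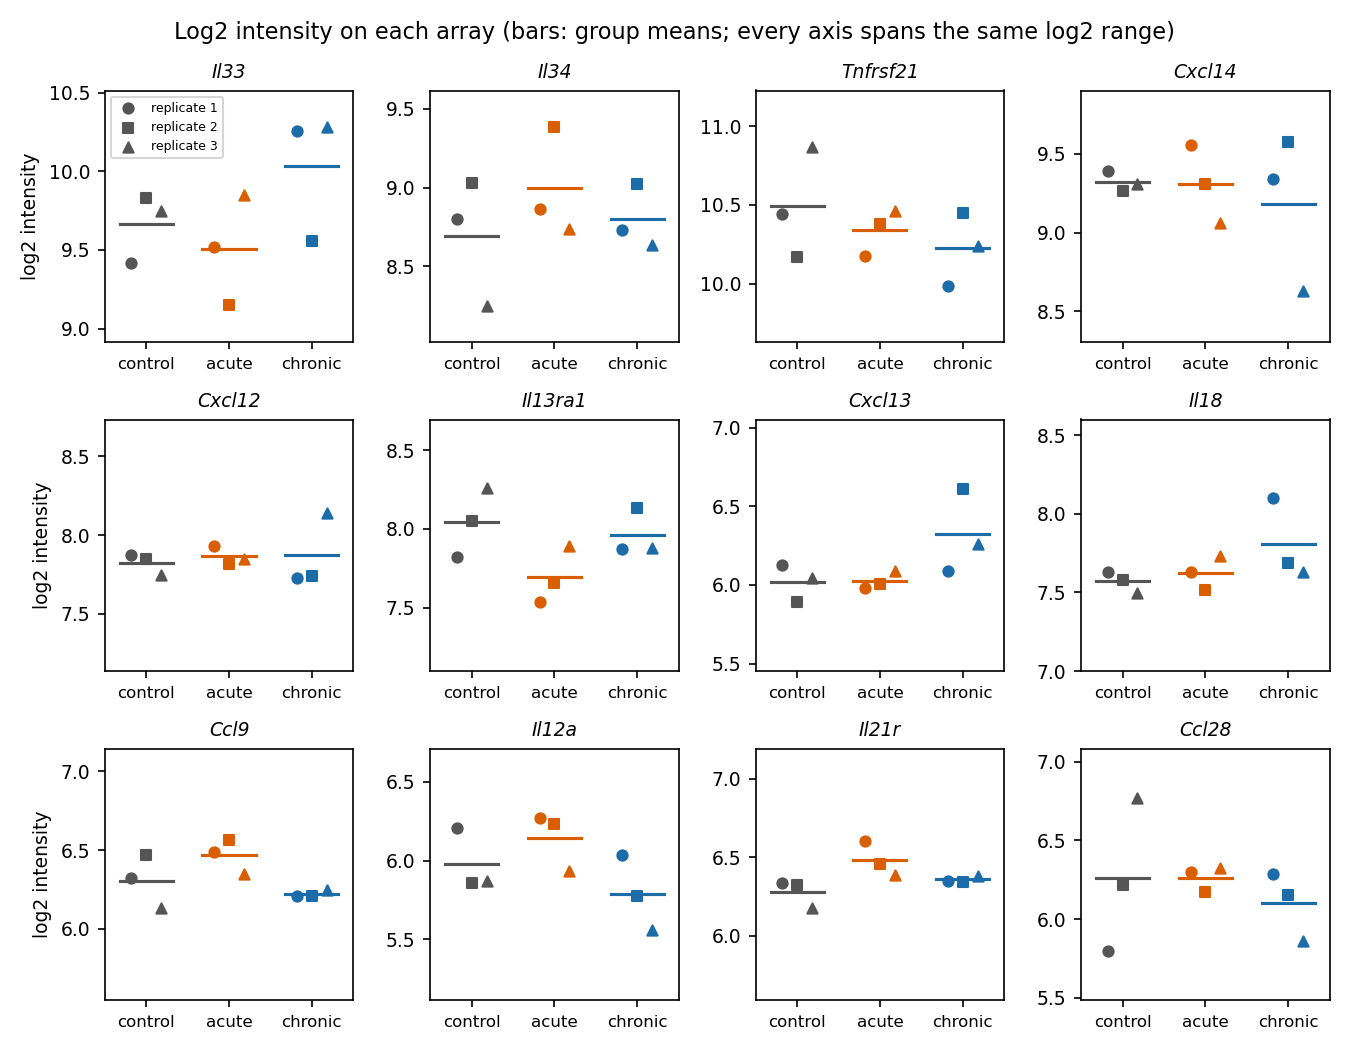
Log2 intensity (y axis) of 12 members on each array, by group (x axis); marker shapes give the replicate number and bars the group means, and every panel spans the same log2 range. The highest Il33 values are those of chronic 1 and chronic 3 (10.26 and 10.28), and the chronic arrays of Ccl9 all lie below its acute arrays; groups of most other panels overlap.

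Of the remaining interleukins, Il18, a cytokine matured by the inflammasome, was 7.63, 7.58 and 7.50 in controls, 7.63, 7.51 and 7.73 after acute MPTP and 8.10, 7.69 and 7.63 after chronic MPTP. Chronic 1 was higher than all others, and the rest of the chronic arrays were close to the highest control. The difference of chronic against control was 0.24 ± 0.13 (adjusted p = 0.931) and 0.090 without chronic 1, and that of chronic against acute was 0.18 ± 0.13 and 0.035. Il12a, a subunit of interleukins 12 and 35, lay at 6.20, 5.86 and 5.87 in controls, 6.27, 6.23 and 5.93 after acute MPTP and 6.03, 5.78 and 5.56 after chronic MPTP. The difference of chronic against acute was -0.36 ± 0.15 (adjusted p = 0.877; SE 0.085 and adjusted p = 0.237 with the replicate block), and -0.14 without the 3 cortex-rich arrays. Chronic 3 was the lowest array, and chronic against control was -0.19, with -0.071 without chronic 3. Il13, a type 2 cytokine, was -0.24 for chronic against acute and -0.12 without chronic 3; the chronic arrays all lay below the acute arrays. Il25, which drives type 2 responses, was 0.14 for acute against control and 0.066 without control 3. Il17d, a neuronal member of the interleukin 17 family, and Il16, a ligand of CD4, gave 0.079 and -0.049 for acute and 0.018 and 0.045 for chronic against control. Under the tissue covariates Il17d turned to -0.050 and -0.12. Il17c, an epithelial member of the interleukin 17 family, was 6.66, 6.43 and 6.22 in controls, 6.90, 6.45 and 6.40 after acute MPTP and 6.46, 6.43 and 6.04 after chronic MPTP. Its range came from acute 1 at the top and chronic 3 at the bottom.

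Of the receptor chains for interleukins 4 and 13, Il13ra1 and Il4ra lay above the 50th percentile, while Il13ra2, a decoy receptor for interleukin 13, lay at 4.56 to 4.68 and was not tested. Il13ra1 joins Il4ra in the type II receptor that binds both cytokines. It was 7.82, 8.05 and 8.26 in controls, 7.53, 7.66 and 7.89 after acute MPTP and 7.87, 8.13 and 7.88 after chronic MPTP. Acute 1 and acute 2 lay below every other array, and acute 3 lay within the controls. The acute mean was 7.69 ± 0.18 (SD, n = 3) against 8.04 ± 0.22 in controls, a difference of -0.35 ± 0.14, or 1.27-fold, with adjusted p = 1 in limma. Acute 1 and acute 2 were also the acute arrays high in cortex genes. The difference was -0.26 without the 3 cortex-rich arrays, -0.22 with the tissue covariates, and -0.46 to -0.24 when single arrays were left out. Between arrays of the same number it was -0.29, -0.40 and -0.36, and with the replicate block its SE was 0.11 (unadjusted p = 0.012, adjusted p = 0.98 in limma). Chronic against acute was 0.27 ± 0.14, and 0.068 without the 3 cortex-rich arrays. Il4ra, the partner chain, was 7.33, 7.27 and 7.53 in controls, 7.23, 7.59 and 7.58 after acute MPTP and 7.21, 7.38 and 6.99 after chronic MPTP. It had a difference of -0.27 ± 0.14 for chronic against acute (adjusted p = 0.877), -0.10 with the tissue covariates and -0.18 without chronic 3. Against control it was -0.18, and 0.11 with the covariates.

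Il21r, a receptor of lymphocytes, was 6.34, 6.33 and 6.18 in controls, 6.60, 6.46 and 6.38 after acute MPTP and 6.35, 6.35 and 6.38 after chronic MPTP. All 3 acute arrays lay above all 3 controls, and so did all 3 chronic arrays, by a smaller margin. The differences were 0.20 ± 0.088 and 0.079 ± 0.088 (adjusted p = 1 and 0.968), and both share the same controls. Il10ra, the ligand-binding chain of the interleukin 10 receptor, was 6.83, 7.07 and 6.72 in controls, 7.16, 7.03 and 6.99 after acute MPTP and 7.06, 6.86 and 7.04 after chronic MPTP, with 0.19 ± 0.11 for acute against control. Without control 3 this was 0.11 and without control 2 0.28. On average over 17 microglial genes, control 1 lay 0.31 below and control 2 0.20 above the mean of all arrays on the log2 scale, and the acute arrays between 0.031 and 0.066 above it. Whether this had a part in the Il10ra difference was not tested. Its partner Il10rb was 0.032 and 0.082 against control. Il6ra, which binds interleukin 6, was 7.55, 7.55 and 7.48 in controls, 7.88, 7.57 and 7.55 after acute MPTP and 7.47, 7.65 and 7.37 after chronic MPTP. Acute 1 was the highest, and the groups overlapped. Il17ra, a shared chain of interleukin 17 receptors, was -0.24 for chronic against acute and -0.050 without the 3 cortex-rich arrays, and Il12rb1, the receptor chain for interleukins 12 and 23, -0.21 and -0.034. Il15ra was -0.088 for acute against control and 0.10 for chronic against acute. Il20ra was 0.20 for chronic against control, 0.11 without chronic 1, 0.38 without chronic 2 and -0.15 with the tissue covariates. Il9r was -0.14, and -0.0049 without chronic 3.

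Receptors of the TNF superfamily were tested in the largest share of any of the families, 17 of 20. Tnfrsf1a, the main receptor for TNF, was 7.35, 7.54 and 7.59 in controls, 7.45, 7.66 and 7.70 after acute MPTP and 7.43, 7.70 and 7.57 after chronic MPTP. The groups overlapped, with differences of 0.11 ± 0.11 and 0.075 ± 0.11 for acute and chronic against control. Between arrays of the same number the acute difference was 0.10, 0.12 and 0.11, and with the replicate block its SE was 0.069 (unadjusted p = 0.146, adjusted p = 0.98 in limma). Tnfrsf1b, the second TNF receptor, had -0.047 and 0.025. Tnfrsf21, death receptor 6 of neurons and oligodendrocytes, was 10.44, 10.17 and 10.87 in controls, 10.17, 10.38 and 10.46 after acute MPTP and 9.99, 10.45 and 10.24 after chronic MPTP. Control 3 was above all other arrays. The differences were -0.16 ± 0.18 and -0.27 ± 0.18. Without control 3 they were 0.031 and -0.084, and with the tissue covariates 0.044 and 0.22, so that the first turned in both settings and the second with the covariates. Tnfrsf19, a receptor of neural progenitors and astrocytes, was 9.42, 9.32 and 9.29 in controls, 9.52, 9.53 and 9.37 after acute MPTP and 9.35, 9.39 and 9.66 after chronic MPTP. Chronic 3 was the highest, and chronic against control was 0.12, and 0.027 without chronic 3. Tnfrsf8, which encodes CD30, had -0.27 ± 0.12 for chronic against control (adjusted p = 0.911), -0.16 without control 3 and -0.077 with the covariates. In acute against control it was -0.10, and turned to 0.010 without control 3. Tnfrsf12a, the receptor for TWEAK, had 0.062 and -0.020, and Tnfrsf11b, the decoy receptor osteoprotegerin, 0.077 and 0.011.

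Few ligands of this superfamily were tested. Tnfsf10, the death ligand TRAIL, was 6.12, 6.17 and 6.16 in controls, 6.28, 6.21 and 6.40 after acute MPTP and 6.16, 6.09 and 6.25 after chronic MPTP. All acute arrays lay above all controls, with a difference of 0.15 ± 0.084 (adjusted p = 1), and the chronic arrays spanned the controls (0.018). It was 0.10 without acute 3 and 0.24 without the 3 cortex-rich arrays. Tnfsf13b, the B cell factor BAFF, was highest on control 3 (7.15, against 6.86 or less elsewhere). Its difference in acute against control was -0.14, and turned to 0.060 without control 3. Tnfsf11, which encodes RANKL, was -0.18 for chronic against control, and -0.024 without chronic 3.

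Groups did not overlap for 3 of the 73 members in acute against control (4.11%, against 3.56% of all probe sets, and 2.06% in the higher direction). These were Il21r, Tnfsf10 and Tnfrsf11a, the receptor of RANKL, all higher after MPTP. In chronic against control they were Il21r, Tnfrsf11a and Il27ra, also all higher (4.11%, against 6.55% of all probe sets and 2.88% in that direction). In chronic against acute they were Ccl9, Il13 and Il21r, all lower after chronic MPTP (4.11%, against 8.63% of all probe sets and 5.01% in that direction). Tnfrsf11a and Il27ra were named after their values were seen, and their differences were small: 0.056 and 0.071 for Tnfrsf11a and 0.065 for Il27ra in chronic against control.

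More members were above than below the controls after acute MPTP, by little. Of the 73, 54 had a positive difference and 19 a negative one, with a median of 0.054 on the log2 scale, against 0.0036 over all probe sets tested, of which 51.5% were positive. The members' median deviation from their own means was 0.0041, -0.015 and -0.056 on the controls. On the acute arrays it was 0.059, 0.034 and -0.0090, so the groups overlapped. The pooled SD of this deviation within groups was 0.031. Without acute 1, control 2 and control 3 the median was 0.031, 0.035 and 0.036, and without control 1 it was 0.078. Over all alternatives run it lay between 0.031 and 0.078. In chronic against control 40 were positive and 33 negative (median 0.012, all probe sets -0.011), and the median was -0.0055 without control 2, -0.014 without chronic 1, 0.030 without control 1 and 0.037 without chronic 3. In chronic against acute 21 were positive and 52 negative (median -0.063, all probe sets -0.014). The acute arrays enter 2 of these comparisons, so the 2 counts are not independent. The median of chronic against acute was -0.026 without acute 1, -0.024 without chronic 3 and -0.00099 without the 3 cortex-rich arrays.

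Dim probe sets in general leaned the same way. Between the 25th and the 50th percentile, 60.4% of 5445 probe sets were positive in acute against control and 36.1% in chronic against acute, with medians of 0.024 and -0.042. The 59 members in that band had 44 positive in the first and 16 positive in the second, with medians of 0.053 and -0.065. Above the 50th percentile 47.1% and 51.1% of 10890 probe sets were positive. The 14 members there had 10 and 5 positive, with medians of 0.067 and -0.030. On single arrays the members of the dim band deviated from their own means by a median of 0.066 on acute 1 and -0.063 on chronic 3, and all probe sets of that band by 0.018 and -0.047. The lower quartile of all values was 5.67 on acute 1 and control 1 and 5.57 on chronic 3, the lowest of the arrays. Its part in the medians was not tested.

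**Figure D3:**
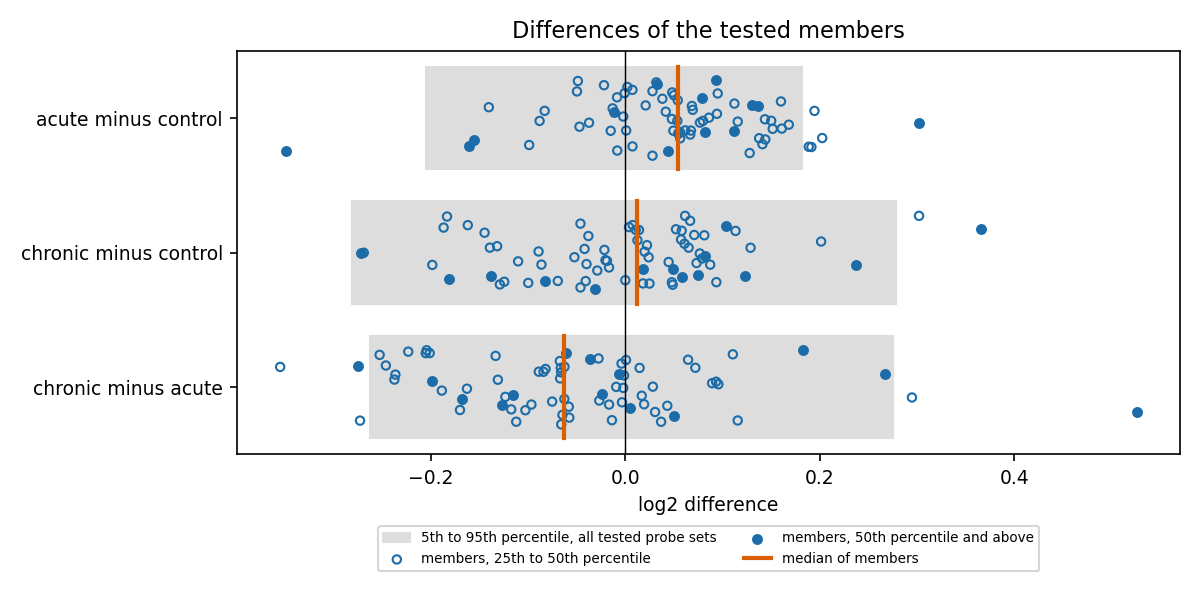
Log2 differences (x axis) of the 73 tested members, 1 point each, in the 3 comparisons (y axis); filled points lie at or above the 50th percentile of intensity, open points below it, orange bars are the members' medians, and grey boxes span the 5th to 95th percentile of all 16335 probe sets. The medians are 0.054, 0.012 and -0.063, well inside the grey boxes.

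**Figure D4:**
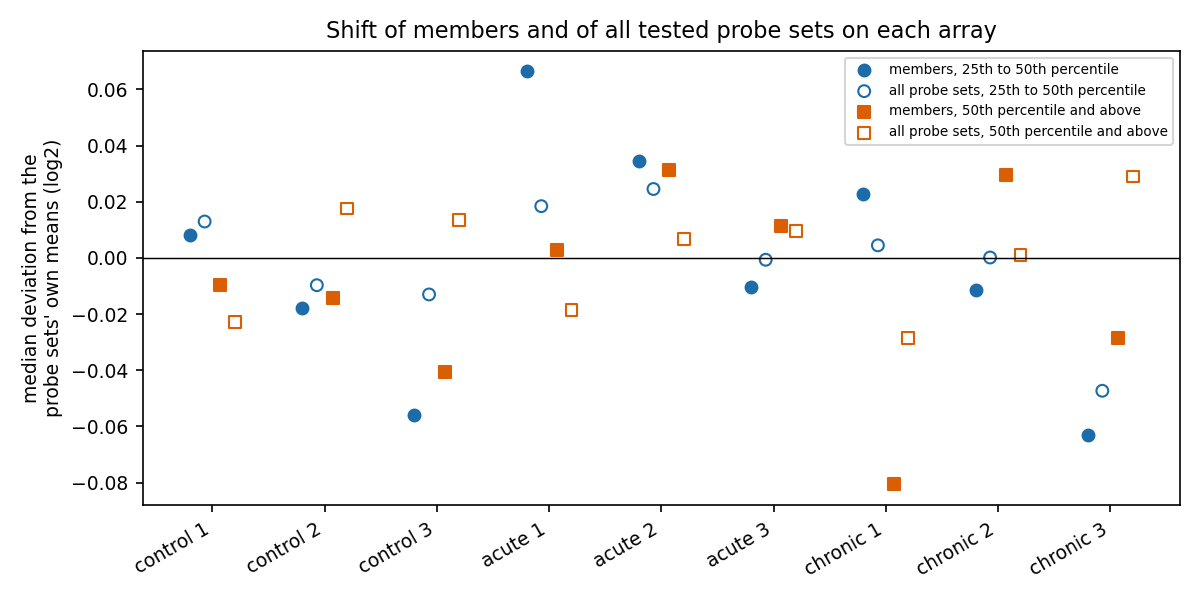
Median deviation from each probe set's own mean (y axis, log2) on each of the 9 arrays (x axis), for members (filled) and all tested probe sets (open), below (circles) and above (squares) the 50th percentile. Dim members lie highest on acute 1 (0.066) and lowest on chronic 3 (-0.063).

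Genes that act with the family but are named otherwise likewise did not pass. Of 57 such ligands and receptors 38 were tested, and 0 passed over all genes in any comparison in limma. At an unadjusted p under 0.05 there were 0 in acute and 1 in chronic against control (0.851% and 5.51% of all probe sets). In chronic against acute 1 was lower (5.12% of all). The 1 in chronic against control was Tgfb1, a cytokine of microglia, with 0.28 ± 0.12 (adjusted p = 0.899). Tgfb1 was 6.97, 7.34 and 7.30 in controls, 7.45, 7.49 and 7.39 after acute MPTP and 7.33, 7.58 and 7.54 after chronic MPTP. Control 1 was the lowest array, and chronic 2 the highest. The interferon gamma receptor chain Ifngr1 was 0.23 for chronic against control, and Il17re 0.16 for acute against control. Cx3cl1, the neuronal ligand of the microglial receptor Cx3cr1, was 11.12, 11.55 and 11.11 in controls, 11.34, 11.67 and 11.46 after acute MPTP and 11.21, 11.74 and 11.42 after chronic MPTP. The groups overlapped, and each acute and each chronic array was above the control of the same number. Cx3cr1 lay at 8.92, 9.22 and 9.04 in controls, 9.34, 9.21 and 9.13 after acute MPTP and 9.23, 9.11 and 9.32 after chronic MPTP, and its groups overlapped.

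Of 32 tested genes of NF-kappaB, interleukin 1, TNF and Toll-like receptor signalling, 20 were positive in acute and 21 in chronic against control, and 0 passed over all genes. At an unadjusted p under 0.05 in limma, 1 was lower in the first and 3 were higher in the second (0.851% and 5.51% of all probe sets). In chronic against acute 3 were higher (5.12% of all). Nfkbia, the inhibitor that NF-kappaB itself induces, was 8.33, 8.33 and 8.69 in controls, 8.18, 8.23 and 7.97 after acute MPTP and 8.52, 8.29 and 8.12 after chronic MPTP, with all acute arrays below all controls and -0.33 ± 0.14 for acute against control (adjusted p = 1). Tirap, an adaptor of Toll-like receptors, was -0.24. Traf6, an adaptor of interleukin 1 receptors, was 0.25 ± 0.091 and Rel, an NF-kappaB subunit, 0.61 ± 0.23 for chronic against control (adjusted p = 0.876 and 0.884). Of 22 genes of JAK-STAT signalling 15 and 13 were positive, and of 18 interferon response genes 11 and 13. In both lists 0 passed over all genes and 0 had an unadjusted p under 0.05 against control. The smallest p-values in chronic against control were those of Stat6 (0.31 ± 0.14) and Jak2 (0.22 ± 0.11), and of Ifit1 (0.30 ± 0.14) and Oasl2 (0.30). In acute against control they were those of Socs2 (0.20) and Pias1 (-0.15), and of Oas3 (0.15) and Usp18 (0.14).

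Marker genes of cells that make these proteins were compared in the same fit. Of 17 microglial genes 15 were positive in acute and 14 in chronic against control, with medians of 0.11 and 0.14, and 0 passed. Aif1, the microglial marker Iba1, was 6.45, 6.44 and 6.18 in controls, 6.57, 6.45 and 6.45 after acute MPTP and 6.45, 6.45 and 6.63 after chronic MPTP. Control 3 was the lowest array and chronic 3 the highest. Of 15 endothelial and pericyte genes 13 and 10 were positive (medians 0.072 and 0.053), and Cldn5, a tight junction gene of brain endothelium, lay at 8.90 to 10.07 over the arrays. Of 10 astrocyte genes 7 and 3 were positive (medians 0.034 and -0.076). Of T and NK cell, B and plasma cell, neutrophil and border macrophage genes, 3 of 11, 3 of 6, 4 of 8 and 1 of 7 on the arrays were tested, and 0 passed in limma. At an unadjusted p under 0.05 in chronic against control, 1 T and NK cell gene and 1 endothelial or pericyte gene were higher. The 1 tested border macrophage gene was lower (-0.24). Over all probe sets 5.51% had such a p. Among the untested genes, the T cell gene Cd3d lay at 5.20 to 5.37 and the neutrophil gene S100a8 at 5.20 to 5.39.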

How the data were processed

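The authors deposited log2 intensities of probe sets; the log2 scale was read from the values, which lie between 4.27 and 14.4. Per the labels' protocols, total RNA came from a Qiagen column kit and was labelled as biotinylated cDNA (Ambion WT Expression). Background correction, normalization and genome build are not given in the sources used here, and the values were used without further scaling. Samples were grouped by their titles. Names came from the platform's annotation table: of 28815 probe sets, 21780 had 1 symbol, 1605 several and 5430 none. Only 4 members had more than 1 probe set with 1 symbol. All 9 arrays entered 1 limma fit (limma 3.58.1, R 4.3.3) with a coefficient for each group, over 16335 probe sets with a mean at or above the 25th percentile, with two-sided tests, Benjamini-Hochberg adjustment in each comparison and a threshold of 0.05. The code was tested on simulated data. Errors of differences are standard errors, and a difference is the first group minus the second.

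Arrays that carry the same replicate number deviated together from their group means: r across probe sets was 0.157 to 0.673 in 9 such pairs, and -0.609 to 0.184 in the 18 with unlike numbers. These ranges overlap, and they are not independent, as deviations from a group mean offset each other. The numbers were taken to pair the arrays, and this rests on the values alone. The p-values with the block thus use a pairing read from the same data. A fit with the number as a block was run beside the main one. No 2 arrays shared more than 6.34% of values. The number of arrays limits the precision.

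Members were named by a rule: a list of 39 symbols, the 6 with the smallest p in each comparison and direction, the 6 with the widest range and the 10 with the highest mean. Of the lists of related cytokine, signalling and interferon response genes, the 2 with the smallest p against control were named. This was not done for the lists of tissue and cell markers. From those, Tbr1, Ttr, Slc17a6, Cldn5 and Aif1 were fixed as markers. Ccl19, Ccl20, Cxcl2, Cxcl3, Cxcr1, Il2rb, Il27ra, Tnfrsf9, Tnfrsf11a and Tnfrsf25 and the marker genes Ppp1r1b, Ms4a1, Cd79a, Cd3d, S100a8, Cd4, Cx3cl1 and Cx3cr1 were named after their values were seen. Members, lists and this rule were chosen with earlier results of these data known. Alternatives were other filters, normalizations and fits, covariates for tissue, and arrays left out. The tissue covariates were the means of 13 cortex and 18 thalamus, septum and hypothalamus genes. The cortex mean was negative on all chronic arrays (-0.32, -0.27 and -0.58) and mixed in sign in the other groups. It is therefore partly tied to group.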

Additional observations from a re-analysis of the deposited data

How the results depend on the processing

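No member passed the adjusted test under any alternative run: 0 were called in every comparison with other filters, quantile normalization, median centring, the replicate block, the tissue covariates, and each array left out. Directions were followed singly for 36 differences, the 6 with the smallest p in each comparison and direction, and of their 695 alternative values 684 kept their direction. Many of these values could not turn. Other filters, the replicate block, the trended robust fit and the fit of only the 2 groups compared leave a difference as it is. So does leaving out an array of the group not compared. The 36 were also picked by their p in these data, so the count does not measure robustness. The causes of the changes below were not tested. The number of members with an unadjusted p under 0.05 was 2 in acute against control; it was 1 with the filter at the 50th percentile, only the 2 groups compared, quantile normalization, median centring, the tissue covariates, or without the 2 arrays high in choroid plexus genes, 0 without the 3 cortex-rich arrays, and 0 to 2 with single arrays left out. In chronic against control it was 1, and 0 with the filter at the 50th percentile, the replicate block, only the 2 groups compared, and without the cortex-rich arrays or those high in choroid plexus genes; it was 2 with the trended robust fit and the tissue covariates, and 0 to 3 with single arrays left out (0 without control 3, 3 without chronic 2). In chronic against acute it was 3, and 1 with the filter at the 50th percentile or only the 2 groups compared, 8 with the replicate block, 5 with the tissue covariates, 0 without the cortex-rich arrays, 6 without those high in choroid plexus genes, and 0 to 5 with single arrays left out (0 without acute 2 or chronic 3, 5 without acute 3). The replicate block changed no adjusted call.

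The members' median in chronic against acute was -0.026 with no filter, -0.030 with the filter at the 50th percentile, -0.024 with quantile normalization, -0.00099 without the cortex-rich arrays, and -0.083 to -0.024 with single arrays left out. In chronic against control it was 0.053 with the filter at the 50th percentile, and -0.014 to 0.037 with single arrays left out. Of the 36, directions turned for Ccl25 (0.032 in acute against control without the cortex-rich arrays) and Tnfrsf8 (0.038 in acute against control without the arrays high in choroid plexus genes). With the tissue covariates they turned in chronic against control for Il20ra (-0.15 ± 0.18), Il33 (-0.17 ± 0.24), Il4ra (0.11 ± 0.16) and Tnfrsf21 (0.22 ± 0.13). In acute against control they turned for Tnfrsf21 (0.044 ± 0.095) and Tnfsf13b (0.015 ± 0.12). With single arrays left out, acute against control ran from -0.32 to 0.031 for Tnfrsf21, -0.18 to 0.010 for Tnfrsf8 and -0.29 to 0.060 for Tnfsf13b, each turning without control 3. Over all 44 named and tested members the tissue covariates turned 3 differences in acute against control, 13 in chronic against control and 10 in chronic against acute, and leaving out the cortex-rich arrays turned 8, 3 and 10; these are given as counts here, and for some of them in the report. Low signal limits the dim members: those near the filter may hold little beyond background.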

Other observations

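Identical deposited values recurred across arrays among the dim genes. Of the 64 members below the filter, 36 (56.2%) had the same value on at least 3 of the 9 arrays, against 48.8% of all probe sets below it, and of the 73 tested members 16 (21.9%) did, against 16.5% of all tested probe sets. Tnfsf4, the ligand of OX40, had 1 value on 7 arrays, and Cxcl16, Il1rn and Il22ra2 each had 1 value on 6. Of the tested members named above, Ccl7, Il15ra and Il16 each had 1 value on 4 arrays. The SD over such arrays does not measure the spread between samples.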
